A study of Mus musculus with 11 samples.

Results

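The genes described are 52 components of the transforming growth factor beta (TGF-beta) and bone morphogenetic protein (BMP) pathways in mouse fetal lung epithelium, chosen by name from their roles: ligands, receptors, secreted antagonists, matrix and processing proteins, Smads, intracellular inhibitors and target genes. All 52 were among the 24421 rows of the deposited count table, and 48 passed the filter on low counts, which left 13916 genes to test. The study measured polyadenylated RNA by bulk sequencing in epithelial cells taken with EpCAM microbeads from fetal lungs at embryonic day E17.5. It compared 6 libraries labelled Control with 5 labelled PRDM3/16KO. In the knockout, floxed alleles of Prdm16 and Prdm3 were recombined by ShhCre, a Cre driven from the Sonic hedgehog gene, which is active in lung epithelium and also in other Shh-expressing tissues. The stated cross was of Prdm3fl/flPrdm16fl/wtShhCre+ males with Prdm3fl/flPrdm16fl/fl females, so the offspring of both groups would carry floxed Prdm3 on both alleles and floxed Prdm16 on at least 1. The design text calls the comparison animals wild type, but the labels do not give their alleles or say whether they carried ShhCre. They also do not say whether the libraries came from separate embryos or litters, so a p-value here weighs a difference against library-to-library spread that could include technical variation.

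In this family a ligand dimer brings together type I and type II serine/threonine kinase receptors, and the type I receptor phosphorylates receptor Smads, which enter the nucleus with Smad4. BMP ligands act mainly through Smad1, Smad5 and Smad9, and TGF-beta and activin ligands through Smad2 and Smad3. In the fetal mouse lung Bmp4 is known from the distal epithelial tips, and TGF-beta is secreted in a latent form that is held in the matrix until it is released. PRDM3 (also called EVI1, encoded by Mecom) and PRDM16 are zinc-finger transcriptional regulators, and both have been reported to bind Smad3. For the comparison of the branches, 23 genes were assigned to a BMP arm, 20 to a TGF-beta and activin arm, and 9 to both.

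Library totals ran from 6065906 to 7869787 counts and levels are given as CPM (counts divided by the scaled library size and put on a common total). Counts over a whole gene are a weak check of a deletion whose exons are not named: Prdm16 had 202 ± 21.9 to 166 ± 12.2 CPM (Control to knockout, log2 fold change -0.28, SE 0.0793) with overlapping ranges and no call when scaled by library size alone (adjusted p = 0.0576), and Mecom had 219 ± 9.99 to 340.3 ± 16.0 CPM (0.64, SE 0.0572), higher in every library labelled knockout. The Sonic hedgehog gene Shh, from which the Cre is driven, was at 265 to 368 CPM in Control and 230 to 269 CPM in knockout libraries. It fell with overlapping groups (edgeR log2 fold change -0.36, SE 0.0812, adjusted p = 0.00212). The Cre status of the Control animals is not given, and whether the Shh level or ShhCre itself had a part in the results below was not tested. The 8 epithelial markers (1 rose, 4 fell) summed to 6270.0 to 7042 CPM in Control and 5424 to 5926 CPM in knockout libraries. Markers of other cells were present in both groups. Mesenchymal markers (21 genes, of which 8 rose and none fell) summed to 753 to 1288 CPM in Control and 1088 to 1932 CPM in knockout libraries, and mesothelial markers (9 genes, 7 rose, 1 fell) to 179.9 to 318 and 470.0 to 591 CPM. Immune markers (12 genes, 5 rose, none fell) summed to 29.5 to 106 and 72.5 to 270.0 CPM, and endothelial markers (13 genes, 6 rose, 1 fell) to 80.7 to 118 and 91.1 to 118 CPM. Of these 4 lists no marker was at 0 in every library. Within the epithelium, neuroendocrine markers (8 genes, 7 rose) summed to 27.7 to 53.0 and 563 to 702 CPM, and alveolar type 2 markers (10 genes, all 10 fell) to 7256 to 12770.0 and 2491 to 3772 CPM. Alveolar type 1 markers (9 genes, 3 rose, 1 fell) summed to 5727 to 9426 and 8524 to 10320 CPM. Airway markers (7 genes, 2 rose, 1 fell) summed to 1089 to 1894 and 1412 to 1766 CPM. Of all genes tested, 21.1% rose and 21.8% fell. The epithelial, mesothelial, neuroendocrine and alveolar type 2 sums separated the groups completely, so their part in the results below cannot be told apart from genotype. Control libraries 5 and 6 stood apart with the highest mean log2 level of 11 proliferation genes, 4.92 and 5.29 where Control libraries 1 to 4 had 3.74 to 4.28. Among Control libraries they also had the lowest mean log2 levels of alveolar type 1 markers, 8.76 and 8.54 against 9.17 to 9.33. The same held for alveolar type 2 markers (9.31 and 9.03 against 9.54 to 9.76) and immune markers (0.395 and 0.661 against 1.46 to 2.22). Y-linked RNA was plentiful in 4 of the 6 Control libraries (all but 2 and 6) but in a single knockout library (4).

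Among genes that passed the filter, transcripts of the BMP arm moved in both directions in the knockout. Those of the TGF-beta and activin arm, where they changed, fell. Of the 48 pathway genes tested, 28 (58.3%) passed the threshold, adjusted p under 0.05 by edgeR's quasi-likelihood test with Benjamini-Hochberg adjustment over all 13916 genes; of all genes tested, 42.9% did. Nog, Bmp6, Bmpr1b, Bmp2, Bmp3, Bmp7, Id4, Id3 and Smad4 rose, that is 9 genes, where 21.1% of all genes rose; 19 fell, where 21.8% of all genes fell. At a change of at least 2-fold, 4 of the 48 were higher (Nog, Bmp6, Bmpr1b and Bmp2) and 3 were lower (Bmp4, Tgfb3 and Pmepa1), while 6.92% of all genes tested rose and 4.5% fell by that much. In the BMP arm 8 of 21 tested genes rose and 5 fell, with a median log2 fold change of 0.08. In the TGF-beta and activin arm none of 18 rose and 10 fell, with a median of -0.42. With library size alone as the scaling, Fstl3 also passed on the higher side, and with no filter on low counts 1 of 20 genes did. Of the 9 genes of both arms, Smad4 rose and 4 fell, with a median of -0.16. The median over all genes tested was 0.0023. In 7 genes every knockout library lay above every Control library and in 12 every knockout library lay below; over all genes tested each of these held for 14.2%. Among the 6 libraries low in Y-linked RNA (2 Control, 4 knockout) 6 genes were higher and 12 lower, where 26.1% of all genes were called. Among the 5 high in it, 4 were Control and 1 was knockout, so that the knockout spread is not measured there; that comparison, chosen after seeing the data, called 5 higher and 6 lower, and 12.7% of all genes.

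**Figure D1:**
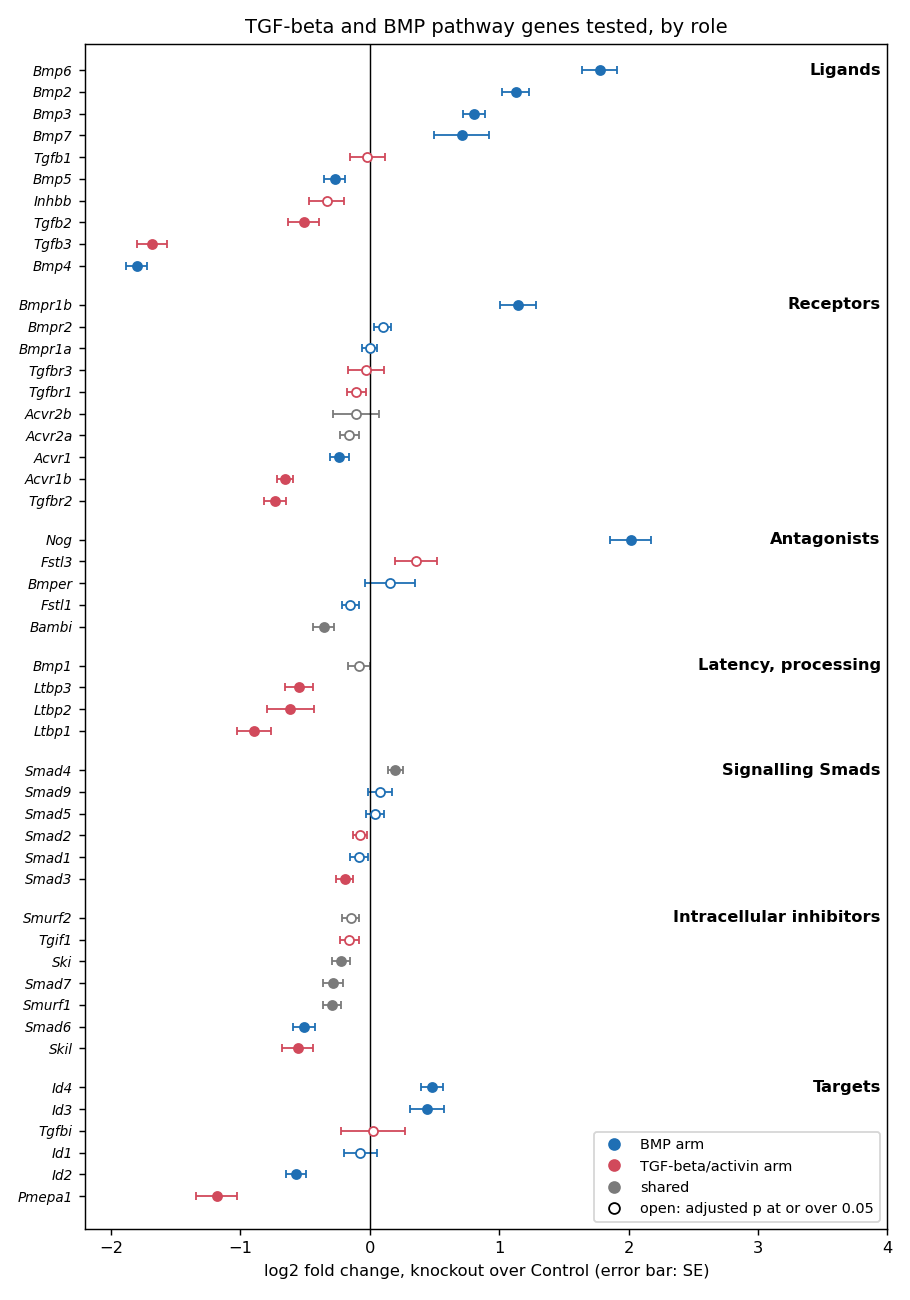
Log2 fold change of knockout over Control (x axis, error bar SE) for the 48 pathway genes tested, grouped by role and coloured by arm; open points have an adjusted p of 0.05 or more. Nog lies farthest to the right at 2.02 and Bmp4 farthest to the left at -1.80, and no filled point of the TGF-beta and activin arm lies to the right of 0.

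The 4 genes that did not pass the filter had few counts in both groups. They were Inhba, the activin A subunit gene, with 31 counts summed over the 6 Control and 46 over the 5 knockout libraries, and the BMP antagonist genes Grem1, with 3 and 11 counts, and Chrd, with 29 and 52. The activin antagonist gene Fst had 10 and 37 counts. No fold is given for them. With no filter on low counts, 9 of 23 BMP arm genes and 1 of 20 TGF-beta and activin arm genes were called higher. Of all genes 3421 of 19503 were called higher there. Whether any gene of the TGF-beta and activin arm was called higher thus depends on the filter.

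Among the ligands, Bmp4 and Bmp5 fell and Bmp2, Bmp3, Bmp6 and Bmp7 rose. Each of the 6 BMP ligand genes among the 52 thus passed the test, where 42.9% of all genes tested did. The 52 were chosen with earlier results of these data known. Of 7 further ligand genes tested, given below, 42.9% passed, and Bmp8a did not (edgeR adjusted p = 0.877). Bmp5 and Bmp7 passed with overlapping groups and lost their calls under some alternatives. Bmp4 (mm10, chromosome 14, 46383520 to 46390669, minus strand) had the most counts per kilobase of exon of the ligand genes in Control. Its level was 159 to 188 CPM in the Control libraries (median 171) and 54.9, 46.0, 48.2, 55.8 and 41.5 CPM for knockout 1 to 5. Every knockout library lay far below the lowest Control library, and the mean fell from 172 ± 9.69 to 49.3 ± 6.08 CPM (SD, n = 6 and 5; edgeR log2 fold change -1.80, SE 0.0798, adjusted p = 1.91e-10). In bulk RNA, fewer cells that express a gene and less RNA per cell cannot be told apart.

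Bmp2 (chromosome 2, 133552159 to 133562885, plus strand) encodes the ligand closest in sequence to Bmp4 and uses the same receptors. It was at 32.2 to 46.6 CPM in the Control libraries (median 41.2) and at 98.5, 82.4, 86.7, 96.4 and 72.0 CPM for knockout 1 to 5. All 5 knockout libraries lay above all Control libraries, and the mean rose from 40.0 ± 5.76 to 87.2 ± 10.8 CPM (edgeR log2 fold change 1.13, SE 0.106, adjusted p = 5.32e-07). Bmp3 (chromosome 5, 98854415 to 98884396, plus strand), an atypical member known to oppose other BMPs, had 38.4 to 51.1 CPM in the Control libraries (median 46.4) and 78.8, 70.7, 83.4, 93.7 and 76.4 CPM for knockout 1 to 5. Its groups did not overlap either (edgeR log2 fold change 0.80, SE 0.0852, adjusted p = 1.95e-06). Bmp6 (chromosome 13, 38345107 to 38500302, plus strand), of the Bmp5, Bmp6 and Bmp7 subgroup, was low in Control with 3.12 to 5.15 CPM in the Control libraries (median 3.64) and reached 12.5, 13.5, 14.0, 11.2 and 13.4 CPM for knockout 1 to 5. The lowest knockout library was above the highest Control library, and the mean rose from 3.77 ± 0.743 to 12.9 ± 1.11 CPM (edgeR log2 fold change 1.78, SE 0.135, adjusted p = 5.45e-08). Exons of Bmp6 share 224 bases with Txndc5 on the opposite strand, and the strand setting of the counting is not given in the sources used here. Opposite-strand genes also cover 1878 of 4025 exon bases of Bmp5, 1157 of 2445 of Fstl3 and 764 of 8184 of Ltbp2, and fewer in Bmp4, Tgfb2, Tgfb3, Ltbp3, Id4, Bmpr1a and Acvr2a, which makes the values of Bmp5 and Fstl3 in particular uncertain.

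Bmp7 rose and Bmp5 fell, both with overlapping groups. Bmp7 was at 5.72 to 15.1 CPM in Control and 12.2 to 19.1 CPM in knockout libraries (edgeR log2 fold change 0.71, SE 0.212, adjusted p = 0.0142). Its Control values were highest in libraries 5 and 6, at 11.8 and 15.1 CPM, and without those libraries the log2 fold change was 1.1. Bmp5 was at 74.0 to 102 and 63.1 to 75.4 CPM (edgeR log2 fold change -0.27, SE 0.0829, adjusted p = 0.0151). Its call was lost without knockout library 2 (adjusted p = 0.0547). With the mean log2 level of the mesenchymal markers as a covariate in the fit, Bmp7 and Bmp5 had log2 fold changes of 0.50 and -0.23 and neither passed (adjusted p = 0.212 and 0.183).

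Per kilobase of exon, a rough way to set levels of different genes side by side, the ligand order changed. The length is the union of annotated exons, which can be longer than the transcripts in use. In Control, Bmp4 stood at 76.4 ± 4.31 CPM per kilobase, Tgfb2 at 49.8 ± 8.05, Tgfb3 at 34.0 ± 4.31 and Bmp5 at 21.2 ± 2.57. They were followed by Inhbb at 11.7 ± 2.43 and Bmp2 at 11.2 ± 1.62, whose spreads overlap. In the knockout, Tgfb2 led at 34.9 ± 5.59 CPM per kilobase. Bmp2 at 24.5 ± 3.03 and Bmp4 at 21.9 ± 2.71 came next and lay within about their spread of each other, and Bmp5 followed at 17.55 ± 1.13. Summed over the 6 BMP ligand genes, the level per kilobase was 118 ± 4.03 in Control (range 112 to 123) and 82.0 ± 6.27 in knockout libraries (75.1 to 89.3), given as a description without a test. Bmp4 made up 59.9% to 68.0% of that sum in Control and 24.5% to 28.1% in knockout libraries. The share of Bmp2 was 7.76% to 11.1% and 27.0% to 31.8%. The sum of Bmp2, Bmp3, Bmp6 and Bmp7 went from 20.7 ± 1.57 to 42.5 ± 2.99 CPM per kilobase, a gain smaller than the loss of Bmp4. Bmp3, known to oppose other BMPs, is counted in these sums. Bmp8b, a further ligand gene given below (2.83 to 6.43 CPM per kilobase, Control to knockout), is not. The sums describe RNA and do not measure ligand activity.

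**Figure D2:**
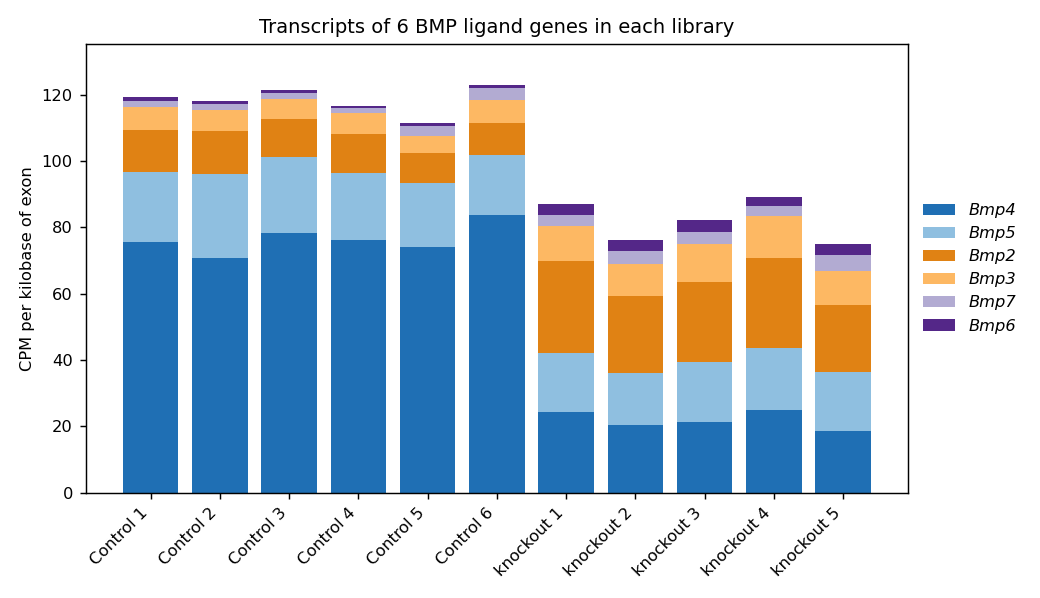
Stacked level of the 6 BMP ligand genes (y axis, CPM per kilobase of exon) in each of the 11 libraries (x axis). Bmp4 makes up 59.9% or more of each Control column and 28.1% or less of each knockout column, and every knockout column is shorter than every Control column.

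On the TGF-beta and activin side, Tgfb3 and Tgfb2 fell and none of the 4 ligand genes tested rose. Tgfb3 (chromosome 12, 86056745 to 86079041, minus strand), which mice need for normal lung and palate development, had 96.1 to 132 CPM in the Control libraries (median 118) and 38.5, 42.7, 38.7, 29.6 and 29.2 CPM for knockout 1 to 5. Its groups were fully separate and the mean fell from 115 ± 14.6 to 35.7 ± 6.01 CPM (edgeR log2 fold change -1.69, SE 0.116, adjusted p = 2.34e-08). Tgfb2, the ligand gene with the most counts per kilobase in this arm, was at 217 to 342 CPM in the Control libraries (median 297) and at 187, 257, 171, 196 and 199 CPM for knockout 1 to 5. The groups overlapped through knockout library 2, and the mean fell from 288 ± 46.6 to 202 ± 32.4 CPM (edgeR log2 fold change -0.51, SE 0.122, adjusted p = 0.00354). With the mesenchymal covariate its log2 fold change was -0.44 and its adjusted p 0.0732. Tgfb1 (log2 fold change -0.019, adjusted p = 0.926) and the activin B subunit gene Inhbb (-0.33, adjusted p = 0.0624) did not pass the edgeR test. Summed with the sparse Inhba, the 5 ligand genes of this arm had 88.4 to 112 CPM per kilobase in Control and 58.1 to 72.2 in knockout libraries. Tgfb3 made up 31.3% to 34.8% of this sum in Control and 14.5% to 19.6% in the knockout.

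Among the 10 receptor genes 1 rose and 3 fell, 40% called, which is near the 42.9% of all genes. Bmpr1b (chromosome 3, 141837136 to 142169425, minus strand), a type I BMP receptor, was at 12.5 to 21.7 CPM in the Control libraries (median 16.8) and at 39.7, 30.9, 40.6, 31.8 and 46.4 CPM for knockout 1 to 5. Each knockout library exceeded each Control library, and the mean rose from 17.2 ± 3.36 to 37.9 ± 6.50 CPM (edgeR log2 fold change 1.14, SE 0.139, adjusted p = 9.48e-06). Bmpr1a, the BMP receptor gene with the most counts per kilobase, had 150.2 to 181 CPM in the Control libraries (median 162) and 166, 166, 165, 155 and 163 CPM for knockout 1 to 5. Its groups overlapped widely and both means were 163 CPM (edgeR adjusted p = 0.995). The type II receptor gene Bmpr2 did not pass (log2 fold change 0.10, adjusted p = 0.244), and Acvr1, a type I receptor gene, fell with overlapping groups (-0.24, adjusted p = 0.0157; with the mesenchymal covariate -0.25, adjusted p = 0.103).

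For TGF-beta and activin, Tgfbr2 and Acvr1b fell. Tgfbr2 (chromosome 9, 116084293 to 116175360, minus strand), the type II receptor that binds TGF-beta, was at 357 to 481 CPM in the Control libraries (median 437) and at 272, 247, 273, 262 and 225 CPM for knockout 1 to 5. The groups were separate, and the mean fell from 426 ± 45.3 to 256 ± 19.9 CPM (edgeR log2 fold change -0.73, SE 0.0837, adjusted p = 4.25e-06). Acvr1b (chromosome 15, 101174067 to 101213684, plus strand), the type I receptor ALK4 used by activin, had 144 to 169 CPM in Control and 94.9 to 109.8 CPM in knockout libraries, again separate (edgeR log2 fold change -0.65, SE 0.0622, adjusted p = 6.24e-07). The type I receptor gene Tgfbr1 (-0.10, adjusted p = 0.269) and Tgfbr3, which encodes the co-receptor betaglycan (-0.031, adjusted p = 0.879), did not pass. Of the shared type II receptor genes, Acvr2a was at 61.5 to 80.4 CPM in the Control libraries (median 66.5) and 63.7, 58.5, 59.9, 57.0 and 63.9 CPM for knockout 1 to 5, overlapping and not called (adjusted p = 0.0907). Acvr2b was not called either (adjusted p = 0.665).

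Nog had the highest fold change of the 48 genes. Nog (chromosome 11, 89300638 to 89302332, minus strand) encodes noggin, a secreted protein that binds BMP2, BMP4 and BMP7 and keeps them from their receptors. It was at 3.52 to 7.78 CPM in the Control libraries (median 6.51) and at 28.6, 29.7, 24.5, 24.6 and 19.1 CPM for knockout 1 to 5. Every knockout library had more than the highest Control library, and the mean rose from 6.196 ± 1.42 to 25.3 ± 4.18 CPM, 4.04-fold (edgeR log2 fold change 2.02, SE 0.161, adjusted p = 9.26e-08). The ratio of Nog to Bmp4 per kilobase was 0.0266 to 0.0554 in Control and 0.584 to 0.856 in knockout libraries. Nog is known from mesenchymal and neural cells as well as epithelium, and mesenchymal, mesothelial and neuroendocrine marker sums were higher in the knockout as given above. With the mesenchymal covariate the log2 fold change of Nog was 1.94 (edgeR adjusted p = 9.1e-06). That covariate is a mean over markers of which some also rose in the knockout, so it cannot show which cells held the Nog RNA. The mesothelial and neuroendocrine sums cannot be told apart from genotype, and the source of the Nog RNA was not tested.

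Fstl1, encoding a secreted glycoprotein reported to bind BMP4 in mouse lung, had the most counts per kilobase of all 52 genes in both groups. It was at 1901 to 2141 CPM in the Control libraries (median 2019) and at 1812, 1797, 1762, 1908 and 1836 CPM for knockout 1 to 5. Its groups overlapped and the difference did not pass (edgeR log2 fold change -0.15, adjusted p = 0.0843). Fstl3, the antagonist gene of the activin arm that could be tested, was at 5.12 to 9.59 CPM in the Control libraries (median 6.49) and at 8.35, 10.1, 7.30, 9.65 and 8.14 CPM for knockout 1 to 5 (edgeR log2 fold change 0.36, adjusted p = 0.0945). It passed without Control library 1. Bmper, a BMP-binding modulator gene, was not called (0.16, adjusted p = 0.542). Bambi, which encodes a pseudoreceptor without a kinase domain that dampens both arms, was at 41.4 to 51.5 CPM in the Control libraries (median 45.2) and at 31.6, 36.0, 33.7, 37.1 and 38.9 CPM for knockout 1 to 5. All knockout libraries lay below all Control libraries (edgeR log2 fold change -0.36, SE 0.0780, adjusted p = 0.00167), and with the mesenchymal covariate the log2 fold change was -0.26 and the adjusted p 0.0915.

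Of the genes for latent TGF-beta binding proteins, Ltbp1, Ltbp2 and Ltbp3 fell, and Ltbp4, from the further lists, did not pass (edgeR log2 fold change 0.17, adjusted p = 0.12). These proteins sit in the matrix, and LTBP1 and LTBP3 tether latent TGF-beta there. Ltbp1 was at 16.9 to 22.2 CPM in the Control libraries (median 17.7) and at 10.2, 8.41, 12.7, 8.23 and 11.3 CPM for knockout 1 to 5, with separate groups (edgeR log2 fold change -0.89, SE 0.130, adjusted p = 4.6e-05). Ltbp3 was at 333 to 517 CPM in the Control libraries (median 375) and at 243, 275, 281, 311 and 242 CPM for knockout 1 to 5, also separate (edgeR log2 fold change -0.55, SE 0.107, adjusted p = 0.000689). Ltbp2, whose product does not tether TGF-beta, fell with overlapping groups (edgeR log2 fold change -0.62, SE 0.181, adjusted p = 0.0138). Its highest value, 58.5 CPM, was in Control library 6, and without Control libraries 5 and 6 the log2 fold change was -0.37, while with the mesenchymal covariate it was -0.96; both passed (adjusted p = 0.0263 and 0.00365). Bmp1, which encodes a matrix metalloprotease and not a BMP ligand, was at 178 to 234 CPM in the Control libraries (median 189) and at 165, 198, 173, 213 and 171 CPM for knockout 1 to 5 and was not called (adjusted p = 0.47).

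Of the 6 genes for signalling Smads, the receptor Smads and Smad4, 1 rose and 1 fell, neither by more than 0.20 on the log2 scale. That is 33.3% called, where 42.9% of all genes tested were. The inhibitory Smad genes Smad6 and Smad7, which fell, are given below with the inhibitors. Smad4, the partner of all receptor Smads, was at 121 to 143 CPM in the Control libraries (median 135) and at 163, 143, 154, 156 and 149.6 CPM for knockout 1 to 5. The lowest knockout value was just above the highest Control value, and the mean rose from 134 ± 8.64 to 153 ± 7.35 CPM (edgeR log2 fold change 0.20, SE 0.0595, adjusted p = 0.0148). With the mesenchymal covariate the log2 fold change was also 0.20, with an adjusted p of 0.115. Smad3, the receptor Smad gene of the TGF-beta arm with more counts, was at 285 to 338 CPM in the Control libraries (median 325) and at 263, 292, 258, 281 and 297 CPM for knockout 1 to 5. Its groups overlapped (edgeR log2 fold change -0.19, SE 0.0643, adjusted p = 0.0235), and the call was lost without knockout library 1 (adjusted p = 0.067) or 3 (0.0735). Smad5, the BMP receptor Smad gene with the most counts per kilobase, was at 231 to 273 CPM in the Control libraries (median 257) and at 284, 248, 267, 239 and 274 CPM for knockout 1 to 5, overlapping and not called (adjusted p = 0.669). Smad1 (-0.084), Smad9 (0.079) and Smad2 (-0.074) were not called, with adjusted p of 0.366, 0.535 and 0.294.

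Of 7 genes for intracellular inhibitors 5 fell and none rose, 71.4% called, where 42.9% of all genes tested were called and 21.8% fell. Smad6, which encodes an inhibitory Smad of the BMP arm and is itself induced by BMP, was at 69.8 to 87.7 CPM in the Control libraries (median 80.2) and at 48.5, 64.0, 55.5, 60.3 and 49.2 CPM for knockout 1 to 5. The groups were separate (edgeR log2 fold change -0.51, SE 0.0864, adjusted p = 0.0002). Skil, the gene of the Smad corepressor SnoN and a known TGF-beta target, was at 273 to 446 CPM in the Control libraries (median 394) and at 281, 259, 246, 242 and 249 CPM for knockout 1 to 5. Control libraries 5 and 6 had 312 and 273 CPM, and the groups overlapped at library 6 (edgeR log2 fold change -0.56, SE 0.117, adjusted p = 0.00131); without both the log2 fold change was -0.71. Ski, whose product represses Smad-dependent transcription in both arms, was at 305 to 386 CPM in the Control libraries (median 330.1) and at 291, 302, 290.2, 306 and 267 CPM for knockout 1 to 5, with overlap (edgeR log2 fold change -0.23, SE 0.0712, adjusted p = 0.0188). The call of Ski was lost without knockout library 5 (adjusted p = 0.0577). Smad7, the general inhibitory Smad gene (-0.29, adjusted p = 0.00766), and Smurf1, a ubiquitin ligase gene (-0.29, adjusted p = 0.00387), fell with separate groups. Smurf2 (-0.15, adjusted p = 0.0795) and Tgif1, a corepressor gene (-0.16, adjusted p = 0.101), were not called. With the mesenchymal covariate the log2 fold change was -0.28 for Smad7, -0.27 for Smurf1 and -0.19 for Ski, close to the values without it, and the adjusted p was 0.0761, 0.0712 and 0.2.

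**Figure D3:**
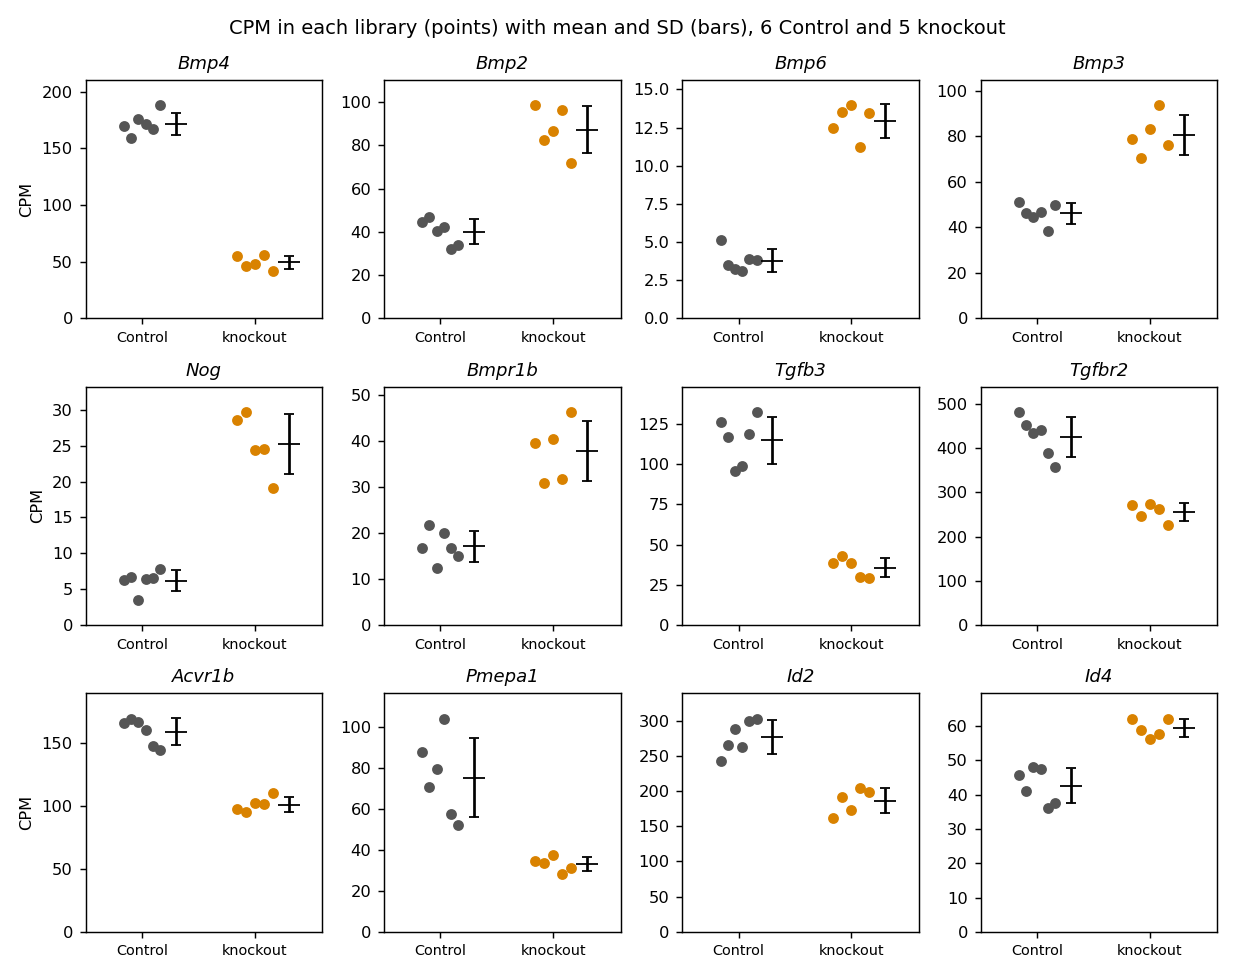
CPM in each library (points) for 12 pathway genes with the mean and SD beside them (bars), 6 Control and 5 knockout libraries, each panel on its own linear axis from 0. In each panel the highest library of the lower group lies under the lowest library of the higher group.

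The 4 Id genes, which encode helix-loop-helix proteins without a DNA-binding domain and are classic BMP targets, did not all change in 1 direction. Id2 and Smad6, both known to be induced by BMP, which fell, and Id3 and Id4, which rose, are shown with their promoters, 250 bases before to 50 after the start, from RefSeq on GRCm38.p6; RefSeq promoters were found for 37 of the 52 genes. Capitals mark letters searched on both strands: GGCGCC, the GC-rich Smad site of BMP targets, CAGAC, the Smad3 and Smad4 core, CAAGTG, the NKX2-1 core, GTCTAGAC, the palindromic Smad element, whose letters do not contain CAGAC, and GACAAGATA, an EVI1 motif. They lie at chr12:25096043-25096342, minus strand for Id2, chr4:136143572-136143871, plus strand for Id3, chr13:48260866-48261165, plus strand for Id4 and chr9:64022010-64022309, minus strand for Smad6.
Id2: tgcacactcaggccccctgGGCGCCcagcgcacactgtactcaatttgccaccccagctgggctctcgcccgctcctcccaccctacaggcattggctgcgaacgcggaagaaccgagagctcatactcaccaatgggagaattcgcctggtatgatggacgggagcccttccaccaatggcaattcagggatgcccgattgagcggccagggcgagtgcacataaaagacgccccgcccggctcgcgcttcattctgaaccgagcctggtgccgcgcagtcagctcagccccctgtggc
Id3: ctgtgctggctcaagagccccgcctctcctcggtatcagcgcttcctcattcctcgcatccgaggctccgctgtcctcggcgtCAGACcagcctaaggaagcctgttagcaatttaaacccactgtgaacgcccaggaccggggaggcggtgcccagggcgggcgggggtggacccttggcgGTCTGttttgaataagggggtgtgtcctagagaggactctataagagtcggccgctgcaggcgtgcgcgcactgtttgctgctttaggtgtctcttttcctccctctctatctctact
Id4: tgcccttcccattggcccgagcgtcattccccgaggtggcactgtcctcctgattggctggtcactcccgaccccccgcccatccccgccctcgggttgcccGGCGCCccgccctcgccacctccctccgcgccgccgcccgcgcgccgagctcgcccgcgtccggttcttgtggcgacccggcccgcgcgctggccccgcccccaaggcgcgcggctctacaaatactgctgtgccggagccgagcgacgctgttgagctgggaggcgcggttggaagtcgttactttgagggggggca
Smad6: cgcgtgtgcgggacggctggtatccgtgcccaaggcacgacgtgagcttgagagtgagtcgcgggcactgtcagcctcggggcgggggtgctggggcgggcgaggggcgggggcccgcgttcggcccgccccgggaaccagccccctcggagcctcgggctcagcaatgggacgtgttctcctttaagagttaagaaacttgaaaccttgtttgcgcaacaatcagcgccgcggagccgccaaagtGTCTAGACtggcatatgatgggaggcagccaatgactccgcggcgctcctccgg
GGCGCC stood in Id2, which fell, with its first base at -231 from the start, and in Id4, which rose, at -148; 11.9% of all 32851 promoters of this length hold it. Id3 had CAGAC at -167 and, on the other strand, at -68, and 49.6% of all promoters hold it. Smad6 had GTCTAGAC at -4, which 0.213% of all promoters hold. The promoters of all 37 genes were searched, and Smad6 alone held GTCTAGAC. The 4 windows shown were chosen after values were seen. CAAGTG and GACAAGATA were in none of the 4 windows and in 13.6% and 0.119% of all promoters. These matches describe letters and are not binding sites. GC content was 63.3% for Id2, 60% for Id3 and 73.3% for Id4, against a median of 52.7% over all promoters, and its part in the GC-rich matches was not tested.

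Id2 was at 242 to 303 CPM in the Control libraries (median 277) and at 162, 192, 173, 205 and 198 CPM for knockout 1 to 5. All knockout libraries lay below all Control libraries, and the mean fell from 277 ± 24.0 to 186 ± 17.8 CPM (edgeR log2 fold change -0.57, SE 0.0786, adjusted p = 2.68e-05). Id4 had 35.9 to 48.1 CPM in Control and 56.2 to 62.1 CPM in knockout libraries, with separate groups in the other direction (edgeR log2 fold change 0.48, SE 0.0823, adjusted p = 0.000221). Id3, which of the 6 target genes among the 52 had the most counts per kilobase, was at 189.7 to 277 CPM in the Control libraries (median 243) and at 287, 438, 272, 353 and 277 CPM for knockout 1 to 5. Knockout libraries 1, 3 and 5 lay near the top of the Control range and libraries 2 and 4 well above it, so the groups overlapped (edgeR log2 fold change 0.44, SE 0.132, adjusted p = 0.0148). Id1 was at 102 to 153 and 105 to 171 CPM and was not called (adjusted p = 0.668); among the knockout libraries it too was highest in 2 and 4.

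Of the TGF-beta targets, Pmepa1 fell and Tgfbi was not called. Pmepa1, whose product is induced by TGF-beta and sequesters Smad2 and Smad3, was at 52.4 to 104 CPM in the Control libraries (median 75.1) and at 34.3, 33.4, 37.6, 28.3 and 31.3 CPM for knockout 1 to 5. The groups were separate, and the mean fell from 75.4 ± 19.3 to 33.0 ± 3.48 CPM (edgeR log2 fold change -1.19, SE 0.161, adjusted p = 3.99e-05). Its lowest Control values, 57.6 and 52.4 CPM, were those of libraries 5 and 6. Tgfbi, encoding a secreted matrix protein, had a log2 fold change of 0.027 (adjusted p = 0.944).

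**Figure D4:**
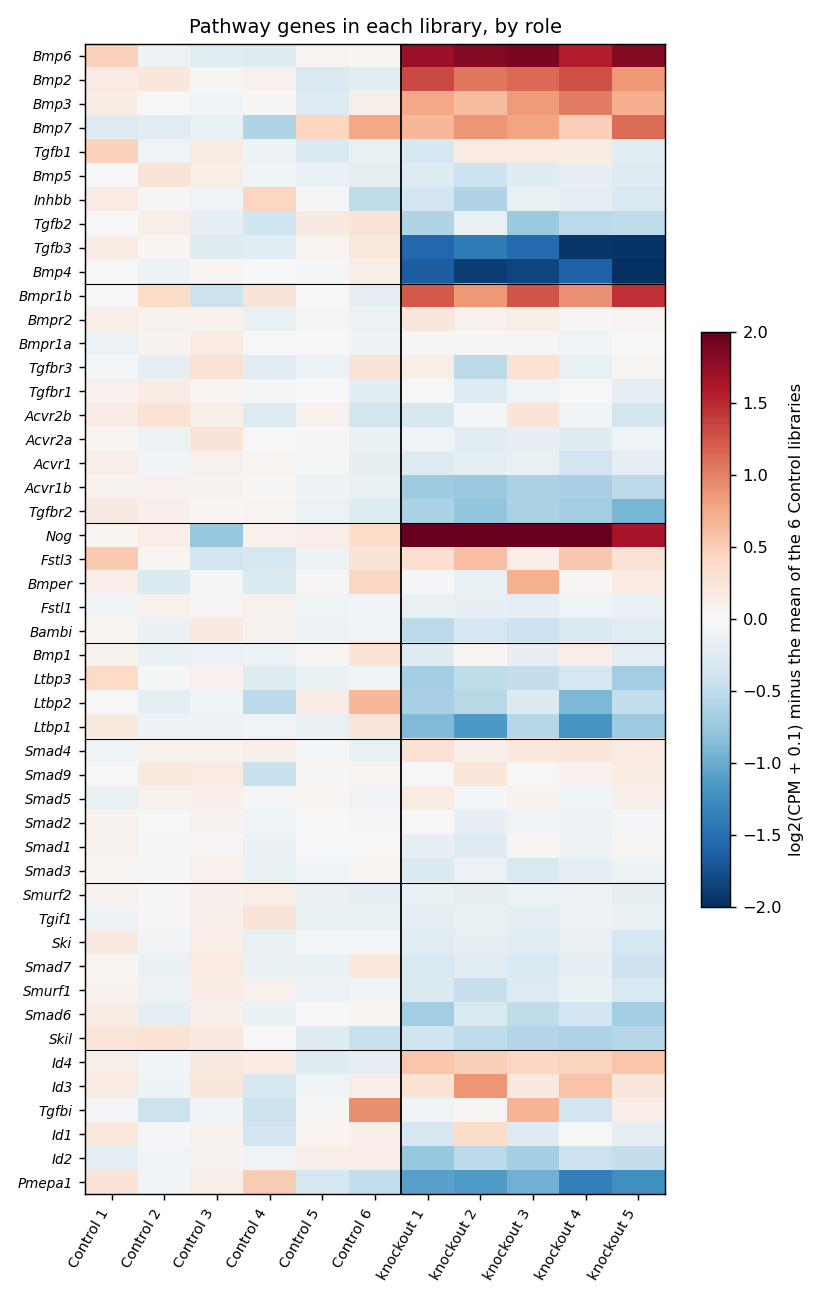
Colour gives log2(CPM + 0.1) minus the mean of the 6 Control libraries for the pathway genes (rows, by role) in each library (columns, Control to the left of the line). Bmp4, Tgfb3 and Pmepa1 are lower and Nog, Bmp6, Bmpr1b and Bmp2 higher in all 5 knockout columns.

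Beyond the 52 genes, 117 further genes of these pathways were looked up by list, of which 86 could be tested; 21 rose and 19 fell (46.5% called, near the 42.9% of all genes), with a median log2 fold change of 0.03. Of 7 further antagonist genes tested 2 rose and none fell. Of 7 further ligand genes tested, Bmp8b (10.98 ± 1.65 to 25.0 ± 3.22 CPM, log2 fold change 1.18, adjusted p = 1.36e-06) and Inha, the inhibin alpha subunit gene (31.6 ± 4.29 to 54.2 ± 2.76 CPM, log2 fold change 0.78, adjusted p = 3.17e-06), rose and Gdf5 fell (10.9 ± 3.77 to 1.67 ± 0.759 CPM, log2 fold change -2.68, adjusted p = 3.08e-05; all edgeR). Of 8 receptor and co-receptor genes 3 rose and 1 fell: Neo1, the neogenin gene, had a log2 fold change of 0.41, and Rgmb, a BMP co-receptor gene, of -0.77. Of 12 genes for latency and activation 3 rose and 3 fell. Itgb5 (0.56) and Itgb6 (0.36), integrin beta subunits that pair with alpha v to release latent TGF-beta, rose, while the alpha v gene Itgav fell (-0.59). The proprotein convertase gene Furin rose (0.18), and Pcsk6, another convertase gene, fell from 54.5 ± 19.6 to 15.5 ± 2.53 CPM (log2 fold change -1.81, adjusted p = 2.73e-05, edgeR), as did Fbn2, which encodes a fibrillin (-0.68). Of 25 genes for Smad cofactors and regulators 4 rose and 5 fell, 36% called. They included the zinc-finger genes Zeb1 (1.02) and Zfp423 (0.68) on the higher side and the ubiquitin ligase genes Wwp2 (-0.55) and Wwp1 (-0.50) on the lower.

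Further target genes of each pathway were counted in the same way. Of 8 further BMP target genes tested of 14 listed, 4 rose and none fell, with a median log2 fold change of 0.37; of all genes 21.1% rose and 21.8% fell. The homeobox gene Msx2 rose from 1.56 ± 0.712 to 10.8 ± 2.54 CPM (edgeR log2 fold change 2.75, adjusted p = 3.71e-07), Atoh8, a basic helix-loop-helix gene, from 55.8 ± 6.58 to 109 ± 12.7 CPM (log2 fold change 0.97, adjusted p = 6.32e-07), and the T-box gene Tbx3 from 9.24 ± 4.43 to 23.0 ± 1.17 CPM (log2 fold change 1.29, adjusted p = 0.000597). Of 20 further TGF-beta target genes 3 rose and 9 fell, with a median of -0.24. Bhlhe40, a transcriptional repressor gene, fell from 436 ± 37.5 to 241 ± 11.9 CPM (edgeR log2 fold change -0.85, adjusted p = 1.46e-07) and Vasn, whose product binds TGF-beta, from 376 ± 28.2 to 226 ± 19.2 CPM (log2 fold change -0.73, adjusted p = 1.3e-06). Klf10 (0.51), Ctgf (0.33) and the fibronectin gene Fn1 (0.61) rose. Together with the members assigned to the target role, 6 of 12 BMP targets rose and 1 fell (Id2), and 3 of 22 TGF-beta targets rose and 10 fell. Genes given another role are not in these numbers, among them Smad6 and Skil, which are induced by their pathways, fell and were counted as inhibitors. Smad7, counted as an inhibitor, and Bambi, counted as an antagonist, also fell and are not in them either. Target genes have other regulators in these cells, and no difference between the lists was tested.

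**Figure D5:**
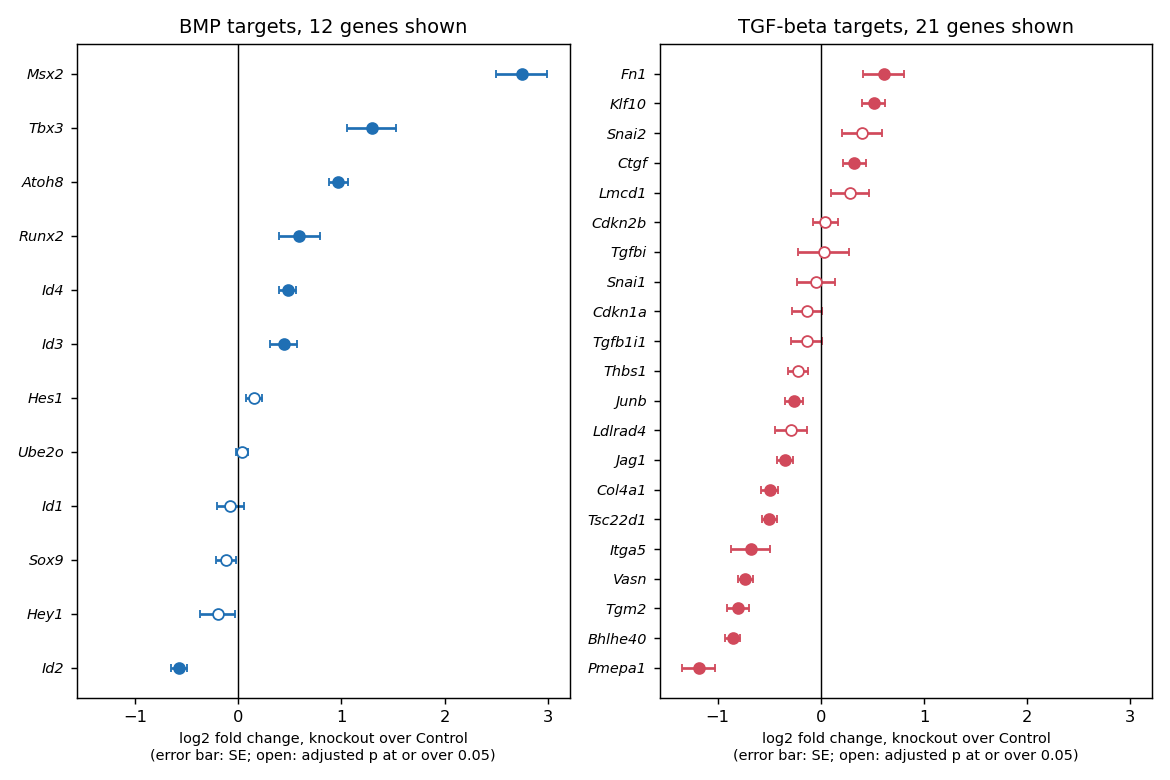
Log2 fold change of knockout over Control (x axis, error bar SE) of the 12 BMP target genes and 21 of the 22 TGF-beta target genes tested, open points with an adjusted p of 0.05 or more. Of the genes plotted as BMP targets, which leave out the inhibitor gene Smad6, Id2 is the filled point below 0, and the 3 filled TGF-beta targets above 0 are Fn1, Klf10 and Ctgf.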

How the data were processed

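Whole-number counts per gene symbol were deposited by the authors as 1 table of 11 libraries, with no normalization. Per the submitters' processing notes they were made with HTSeq 2.0 among other tools (Bowtie2 2.4.2, Trim Galore 0.4.2), on mm10; the strand setting is not given in the sources used here. The pathway genes and lists were chosen with earlier results of these data known. In R 4.3.3, edgeR 4.0.16 filtered genes (filterByExpr), scaled libraries (TMM) and ran the robust quasi-likelihood test, two-sided, on all 13916 genes with Benjamini-Hochberg adjustment; limma 3.58.1 and DESeq2 1.42.0 served as alternatives. CPM per kilobase uses the union of exons in GENCODE M21. Values in every library are given for called genes with an absolute log2 fold change of at least 0.8 and 5 CPM in the higher group, for the gene with most counts per kilobase in each role and arm, and for Smad4; of further lists, up to 3 genes in each direction by smallest adjusted p at 5 CPM or more. Id2, the sequences shown and the ligand sums were chosen after values were seen. The test was checked on simulated data in which 50 genes were changed at each fold, far fewer than were called in the real data. It called 6% of those changed 1.25-fold, 64% at 1.5-fold, 92% at 2-fold and 100% at 4-fold. Most genes changed 1.25-fold were thus missed there. The table holds 27 symbols turned into dates, which were kept in the fit. Some genes of the further lists enter the counts and are not reported here.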

Additional observations from a re-analysis of the deposited data

Results flagged for a closer look

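In 6 of 100 groups of values (the tested pathway genes, Prdm16 and Mecom, each in Control and in knockout libraries), 1 library lay far from the others of its group; chance alone marks about 1 in 20. Nog in Control library 3 was at 3.52 CPM, with the other Control libraries at 6.21 to 7.78, and Bmp6 in Control library 1 was at 5.15 CPM against 3.12 to 3.86. Both genes stayed well under all knockout values. Smad9 and Smad1 were both low in Control library 4, at 55.8 CPM against 75.8 to 86.3 and at 40.2 CPM against 44.1 to 46.3. Tgfbi was at 48.9 CPM in Control library 6 against 19.1 to 26.3 in the others. Bmpr1a was at 155 CPM in knockout library 4 against 163 to 166.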

How the results depend on the processing

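Of the 28 called genes, 11 kept their call under all 23 alternatives (Bmp2, Bmp3, Bmp4, Bmp6, Tgfb3, Bmpr1b, Tgfbr2, Acvr1b, Nog, Ltbp1 and Pmepa1) and 17 lost it under at least 1; none changed direction. Of the 17, 4 (Id2, Id4, Smad6 and Ltbp3) lost it only in the comparison with a single knockout library, which says little on stability. Scaling by library size alone moved the median of all genes from 0.0023 to 0.107 and the share of calls that are higher from 49.2% to 65.6%; 3 BMP arm genes were then lower, 1 TGF-beta arm gene was higher, and the arm medians were 0.184 and -0.317. Bmp5, Acvr1, Ltbp2, Smad3, Smad7 and Ski lost their calls there. DESeq2 and no filter each gave 1 higher TGF-beta arm gene and medians of -0.267 and -0.252 there. With the mesenchymal covariate 11 genes were lower, 3 of them in the BMP arm (all genes: 1876 higher, 1799 lower). Among libraries low in Y-linked RNA (2 Control, 4 knockout) 12 were lower, 3 in the BMP arm, with a TGF-beta arm median of -0.244 (all genes: 1932 and 1821). Among those high in it (4 Control, 1 knockout, whose spread is assumed to be that of the Control; chosen after seeing the data) 5 were higher, all 5 in the BMP arm, and 6 lower, 1 in the BMP and 5 in the TGF-beta arm, with a BMP arm median of -0.0018 (all genes: 869 and 933). Leaving out 1 library at a time gave 0 to 1 higher TGF-beta arm genes (Fstl3 without Control 1) and BMP arm medians of 0.0301 (without Control 4) to 0.11, with 0.0339 without knockout 3. Same-numbered libraries did not deviate together (correlations of -0.0625 to 0.26) and share only a number. With the replicate number as a block, 8 genes were higher and 21 lower, where 44.6% of all genes were called. The calls of Smad3 (edgeR adjusted p = 0.054) and Smad4 (0.051) were lost there and Inhbb, Smurf2 and Tgif1 gained. Without Control 5 and 6, 33 (68.8%) were called, among them all 28, and 46.7% of all genes were called. Depth limits low genes: Bmp6 rests on 18 to 31 and Nog on 22 to 63 counts in each Control library.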
